A study of Mus musculus with 18 samples.

Results

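The genes that encode the core subunits of the NuRD (nucleosome remodeling and deacetylase) complex were followed through neutrophil differentiation. The 10 genes, *Chd4*, *Chd3*, *Mta1*, *Mta2*, *Mta3*, *Gatad2a*, *Gatad2b*, *Mbd2*, *Mbd3* and *Rbbp4*, were chosen by symbol, and all 10 were found among the 34896 genes of the expression table. RNA-seq covered granulocyte-monocyte progenitors (GMP), pre-neutrophils (preNeu) and mature neutrophils (matNeu) with 3 libraries each, all from bone marrow of wild type C57BL/6 mice aged 6 to 12 weeks. GMPs had been sorted as lineage-negative, cKIT+, SCA-, CD16/32+ and CD34+ cells, and preNeu and matNeu cells from the MAC-1+ GR1+ fraction, with CXCR2 marking the mature cells. CHD4 ChIP-seq, 1 library per genotype, came from GMPs of wild type and Gfi1-/- mice (WT and Gfi1KO) of the same strain and age, and H3K4me2 ChIP-seq, 1 library per cell type, came from wild type GMP, preNeu and matNeu cells. In these data H3K4me2, dimethylated lysine 4 of histone H3, served as a mark of active promoters and enhancers. Bulk RNA cannot separate fewer cells of a type from less RNA per cell.

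NuRD joins an ATPase that slides nucleosomes to a histone deacetylase. CHD4 and its paralog CHD3 are alternative ATPases, MTA proteins form the scaffold that holds HDAC1 or HDAC2, GATAD2 proteins bridge the ATPase to the rest, RBBP4 and RBBP7 bind histones, and MBD2 and MBD3 exclude each other from a complex. MBD2 binds methylated CpG, whereas mammalian MBD3 has largely lost that ability. In myeloid cells the repressor GFI1 is among the factors that bring NuRD to chromatin.

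The NuRD promoters at hand were rich in CpG beside promoters of all genes. RefSeq promoter windows of 300 bases (GRCm38.p6, 250 before and 50 after the 5′ end) were at hand for 7 of the 10 genes, with 10 windows in all. They held 16 to 50 CpG dinucleotides, against a median of 7 over 32851 windows of the same length, and lay at percentiles 68.6 to 99.3 of all windows. Those windows were not limited to genes expressed in GMPs, as the NuRD genes were. The contrast therefore cannot be read as particular to NuRD genes. *Chd3*, *Mta3* and *Mbd2* had no window. The 200 bases before the 5′ end are printed for genes whose RNA fell (*Mta1*, *Mbd3*, *Rbbp4*) and for a gene without a called change (*Gatad2a*), each on the strand of its gene and with every CpG in capitals. The *Mta1* window, at chr12:113098078-113098277 (+), held 35 CpGs. The *Mbd3* window, at chr10:80399532-80399731 (-), held 14, the *Rbbp4* window, at chr4:129335371-129335570 (-), held 26, and the *Gatad2a* window, at chr8:69996385-69996584 (-), held 13.
Mta1: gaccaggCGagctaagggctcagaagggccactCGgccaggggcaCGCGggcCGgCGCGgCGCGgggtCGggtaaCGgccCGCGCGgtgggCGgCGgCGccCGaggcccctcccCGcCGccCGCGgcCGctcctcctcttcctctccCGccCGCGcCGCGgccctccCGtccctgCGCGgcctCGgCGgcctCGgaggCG
Mbd3: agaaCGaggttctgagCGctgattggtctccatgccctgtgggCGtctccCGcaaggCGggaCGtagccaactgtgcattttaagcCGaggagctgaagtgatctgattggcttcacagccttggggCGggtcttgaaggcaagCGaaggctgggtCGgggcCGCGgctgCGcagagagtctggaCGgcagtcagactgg
Rbbp4: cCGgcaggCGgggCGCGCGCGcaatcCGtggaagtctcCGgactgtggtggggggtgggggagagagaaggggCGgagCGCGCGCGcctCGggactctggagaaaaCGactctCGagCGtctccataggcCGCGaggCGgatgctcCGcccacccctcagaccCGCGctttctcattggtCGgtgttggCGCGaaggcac
Gatad2a: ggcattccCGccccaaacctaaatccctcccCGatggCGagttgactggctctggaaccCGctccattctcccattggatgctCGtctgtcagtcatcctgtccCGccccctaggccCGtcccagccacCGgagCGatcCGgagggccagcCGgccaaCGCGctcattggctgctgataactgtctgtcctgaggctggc

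Short motifs were searched on both strands of the 300-base windows. The GC box GGGCGG was found in 10 of the 10 windows of NuRD genes and in 35.7% of all windows, and CCAAT in 7 of 10 and in 37.4%. GAGGAA, the core of sites for ETS factors such as SPI1, was found in 3 of 10 and in 28.3%, and AAATCA, the core that GFI1 recognises, in 0 of 10 and in 14.0%. The windows of *Chd4* overlap each other, and a match describes letters, not binding. Here too, all windows include genes that GMPs need not express, so these contrasts are not particular to NuRD genes.

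The sorted cells carried their expected transcripts. The 6 GMP markers (among them *Mpo* and *Cd34*) summed to 45267 to 47154 TPM (transcripts scaled to a fixed total per library) in GMPs and to 9.32 to 32.7 in matNeu cells, and the 6 matNeu markers (among them *Cxcr2* and *Retnlg*) summed to 31.1 to 39.2 and to 31512 to 36323. For the 6 preNeu markers (among them *Ltf* and *Camp*) the sum was 83.8 to 120 TPM in the GMP, 105723 to 134153 in the preNeu and 4352 to 6675 in the matNeu libraries. The cell type field of the labels differed from the titles for 13 of the 18 samples, all RNA-seq libraries included, and the titles were followed. Markers of other cells moved too, and their part in the changes of NuRD genes was not tested. Of the B cell markers, *Cd79b* had a mean of 86.4 TPM in GMPs, 21.1 in preNeu and 35.4 in matNeu cells, and *Pax5* was listed at 0 in all GMP libraries and had means of 1.48 and 2.06 TPM in preNeu and matNeu cells. The 5 basophil and mast cell markers summed to 453 to 592, 292 to 481 and 2.15 to 14.9 TPM. The 5 eosinophil markers summed to 898 to 1151, 39.0 to 49.9 and 33.6 to 52.6 TPM. The 5 monocyte markers summed to 3808 to 4593, 1682 to 2215 and 1128 to 1495 TPM, but did not move together. *Ly6c2*, *Ccr2* and *F13a1* fell at both steps by mean TPM. *Csf1r* had means of 204, 13.8 and 304 TPM, and *Adgre1* of 12.3, 11.4 and 83.8, in GMP, preNeu and matNeu cells. The 5 megakaryocyte markers summed to 38.0 to 52.4, 3.52 to 7.29 and 7.27 to 9.61 TPM and the 5 erythroid markers to 7.59 to 13.4, 11.8 to 15.6 and 5.02 to 13.8. The 5 T and NK markers summed to 459 to 612, 220 to 252 and 2.86 to 5.64 TPM, nearly all of it *Nkg7* in GMP and preNeu cells.

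RNA of most NuRD genes fell on the way from GMPs to matNeu cells, *Mbd2* rose, and the *Gatad2* genes passed no test as deposited. The summed TPM of the 10 genes was 712 ± 25.0 (SD, n = 3) in GMPs, 468 ± 33.6 in preNeu and 303 ± 29.6 in matNeu cells. Between matNeu cells and GMPs 6 of the 10 genes fell and 1 rose, at an adjusted p under 0.05 by limma on log2(TPM + 1). Over all 13061 genes tested 54.1% fell and 22.8% rose, so that the count of NuRD genes was near that background. Between preNeu cells and GMPs 6 fell and 1 rose (44.3% and 14.7% of all genes), and between matNeu and preNeu cells 4 fell and 2 rose (39.8% and 22.9%). TPM is a share of each library, and the median of all genes itself moved by -0.52 from GMP to preNeu and by -0.92 from GMP to matNeu cells on the log2 scale. The median of the 10 NuRD genes moved by -0.76 and -1.38.

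A scaling of the libraries by the median of ratios, which centres the genes expressed in every library, changed the split of calls. Under it 6 NuRD genes fell and 4 rose between matNeu cells and GMPs (41.8% and 34.4% of all genes). Between preNeu cells and GMPs 4 fell and 1 rose (28.2% and 23.2%), and between matNeu and preNeu cells 4 fell and 3 rose (33.8% and 30.2%). The results below therefore give each gene as deposited and, where the call or direction turns, under this scaling.

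**Figure D1:**
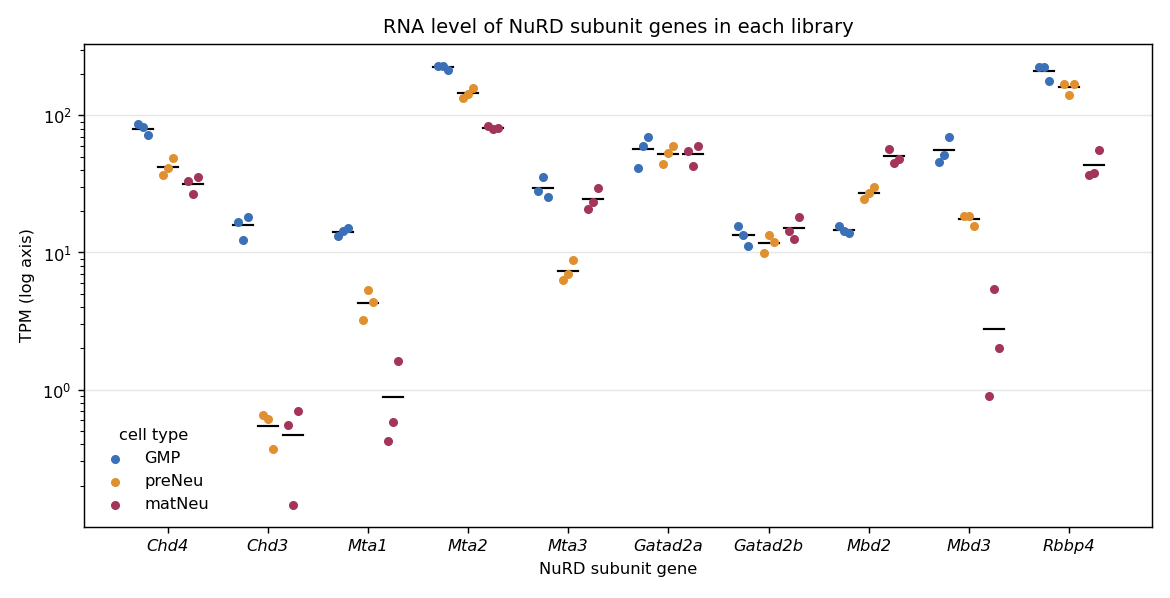
TPM of the 10 NuRD genes in each RNA-seq library (points, log axis) by cell type, with the mean of 3 libraries as a bar. *Mbd2* climbed from 14.5 to 50.1 TPM while *Mbd3* fell from 55.4 to 2.78 TPM, and *Mta3* was lowest in preNeu cells.

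**Figure D2:**
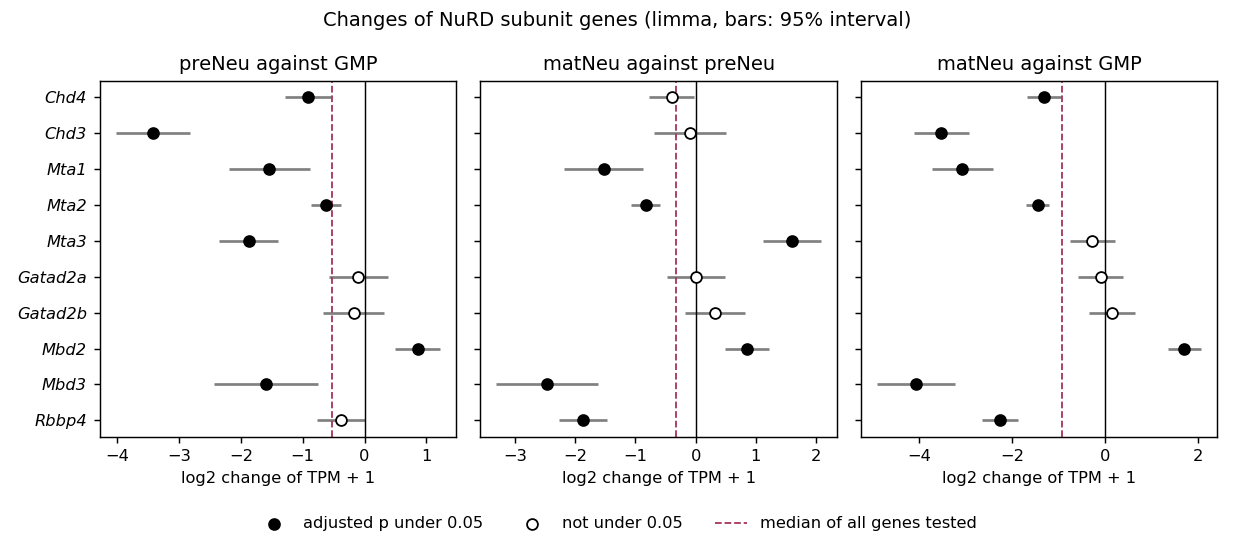
Log2 change of TPM + 1 for each NuRD gene in the 3 comparisons (limma, all 9 libraries in 1 fit), with 95% intervals as bars, filled points for an adjusted p under 0.05 and the median of all genes as a dashed line. *Mbd2* lay above 0 and *Mbd3* and *Mta1* below it in every comparison, and *Gatad2a* and *Gatad2b* had open points throughout.

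The level of the ATPase genes fell, and *Chd3* was lost almost completely. *Chd4* (chr6:125095981-125130591, +) was at 86.2, 81.6 and 71.4 TPM in the GMP libraries, at 36.5, 40.9 and 49.1 in preNeu and at 33.1, 26.8 and 35.2 in matNeu libraries. The GMP libraries lay above all others, and the preNeu and matNeu libraries were separated by a narrow gap. Mean *Chd4* TPM was 1.89-fold lower in preNeu cells than in GMPs (log2 change -0.91, SE 0.17, limma adjusted p = 0.000826) and 2.51-fold lower in matNeu cells (-1.31, SE 0.17, adjusted p = 2.76e-05). Under median-of-ratios scaling the latter change was -0.44 (SE 0.14, adjusted p = 0.0143). From preNeu to matNeu cells the change did not pass the test (-0.40, SE 0.17, adjusted p = 0.0581) and was -0.04 under median-of-ratios scaling.

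*Chd3* (chr11:69343273-69369406, -) was at 16.8, 12.4 and 18.1 TPM in GMPs. It was at 0.658, 0.610 and 0.371 TPM in preNeu and at 0.551, 0.145 and 0.695 in matNeu libraries. The 6 neutrophil libraries lay far below the 3 GMP libraries and overlapped among themselves. A gene had to reach 1 TPM in 3 libraries to be tested, which *Chd3* did through the GMP libraries alone. Its tests against GMPs therefore add no support to these values, and preNeu and matNeu cells were compared at levels under 1 TPM. Its mean was 28.8-fold lower in preNeu cells than in GMPs (log2 change of TPM + 1 of -3.43, SE 0.27, limma adjusted p = 2.91e-06), and preNeu and matNeu cells did not differ by the test (-0.09, 95% interval -0.69 to 0.50, adjusted p = 0.786). *Chd4* made up 83.4% ± 3.50 (SD, n = 3) of the summed TPM of *Chd4*, *Chd3* and *Chd5* in GMPs, 98.5% ± 0.654 in preNeu and 98.6% ± 0.737 in matNeu cells. This share differed between the cell types (exact permutation test over 9 libraries, upper tail of F, p = 0.0214, 0.0245 after adjustment over 8 shares).

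The scaffold genes of the MTA family took separate courses. *Mta2* (chr19:8941875-8952303, +) was the most abundant of the 3, at 228, 229 and 214 TPM in GMPs, 135, 144 and 159 in preNeu and 84.2, 78.9 and 81.2 in matNeu libraries. The 3 groups did not overlap. *Mta2* was 1.54-fold lower in preNeu cells than in GMPs (log2 change -0.62, SE 0.11, limma adjusted p = 0.000649, but -0.11 and adjusted p = 0.385 under median-of-ratios scaling) and 2.75-fold lower in matNeu cells (-1.45, SE 0.11, adjusted p = 3.92e-07).

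*Mta1* (chr12:113098278-113137206, +), first described for its link to metastasis, fell at both steps. It was at 13.2, 14.4 and 15.0 TPM in GMPs, 3.22, 5.30 and 4.35 in preNeu and 0.423, 0.578 and 1.63 in matNeu libraries, again without overlap. The mean was 3.31-fold lower in preNeu cells (log2 change -1.54, SE 0.295, limma adjusted p = 0.0011) and 16.2-fold lower in matNeu cells (-3.07, SE 0.295, adjusted p = 2.83e-06) than in GMPs. Without matNeu replicate 3, the highest of its group, the matNeu mean of *Mta1* was 28.4-fold lower.

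*Mta3* (chr17:83706163-83821516, +) dipped in preNeu cells and came back. It was at 27.9, 35.4 and 25.4 TPM in GMPs, at 6.28, 6.997 and 8.77 in preNeu and at 20.7, 23.2 and 29.4 in matNeu libraries. All preNeu libraries lay below all others, whereas GMP and matNeu libraries overlapped. It was 4.03-fold lower in preNeu cells than in GMPs (log2 change -1.87, SE 0.215, limma adjusted p = 3.62e-05) and 3.32-fold higher in matNeu than in preNeu cells (1.603, SE 0.215, adjusted p = 6.82e-05). Between matNeu cells and GMPs no change was called as deposited (-0.27, 95% interval -0.75 to 0.21, adjusted p = 0.274), while median-of-ratios scaling turned the direction (0.58, adjusted p = 0.0192).

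Within a library, shares do not depend on the scaling between libraries. *Mta2* made up 83.6% ± 1.37 of the MTA TPM in GMPs, 92.6% ± 0.686 in preNeu and 76.4% ± 3.81 in matNeu cells (SD, n = 3 each). The share of *Mta3* was 11.03% ± 1.48, 4.65% ± 0.400 and 22.8% ± 3.27, and that of *Mta1* was 5.33% ± 0.505, 2.72% ± 0.605 and 0.806% ± 0.567. *Mta3* thus held its largest share in matNeu cells and its smallest in preNeu cells, without overlap of any groups. Each of the 3 shares differed between cell types with p = 0.00357 (exact permutation test, the smallest p it can give) and an adjusted p of 0.00571.

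No change was called for the bridging genes as deposited. *Gatad2a* (chr8:69907076-69996384, -) was at 41.1, 59.35 and 69.8 TPM in GMPs, 43.8, 52.7 and 59.6 in preNeu and 54.8, 42.8 and 60.1 in matNeu libraries, and the 3 groups overlapped. *Gatad2b* (chr3:90293178-90363407, +) was at 15.5, 13.4 and 11.2, at 9.84, 13.4 and 11.9 and at 14.2, 12.5 and 18.2 TPM, with overlap as well. From GMP to matNeu cells the log2 change of *Gatad2a* was -0.09 (95% interval -0.57 to 0.39, limma adjusted p = 0.714) as deposited and 0.78 (adjusted p = 0.00391) under median-of-ratios scaling, which turned its direction. The change of *Gatad2b* was 0.15 (95% interval -0.35 to 0.65, adjusted p = 0.556) and 0.97 (adjusted p = 0.0012). From preNeu to matNeu cells *Gatad2b* changed by 0.32 (limma adjusted p = 0.234) as deposited and by 0.67 (adjusted p = 0.0131) under median-of-ratios scaling. From GMP to matNeu cells both genes as deposited lay above the median of all genes, by 0.83 and 1.07 on the log2 scale. *Gatad2a* made up 80.1% ± 6.88, 81.6% ± 1.84 and 77.8% ± 1.39 of the pair in GMP, preNeu and matNeu cells, and this balance did not differ by the exact permutation test (p = 0.568, adjusted p = 0.568).

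The methyl-CpG-binding pair changed places. *Mbd3* (chr10:80392539-80399550, -), whose product is required for NuRD assembly in embryonic stem cells, was at 45.7, 51.1 and 69.5 TPM in GMPs, 18.4, 18.5 and 15.5 in preNeu and 0.903, 5.43 and 2.01 in matNeu libraries. Its paralog *Mbd2* (chr18:70568189-70626131, +) was at 15.5, 14.3 and 13.8 TPM in GMPs, 24.5, 27.3 and 30.1 in preNeu and 57.2, 44.9 and 48.3 in matNeu libraries. In neither gene did any 2 groups overlap. *Mbd3* lay above *Mbd2* in every GMP library and below it in every preNeu and matNeu library.

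The mean of *Mbd3* was 3.17-fold lower in preNeu cells (log2 change -1.59, SE 0.38, limma adjusted p = 0.00421, and 0.0527 under median-of-ratios scaling) and 19.9-fold lower in matNeu cells (-4.06, SE 0.38, adjusted p = 2.24e-06) than in GMPs. Without matNeu replicate 2, the highest of its group, the matNeu mean of *Mbd3* was 38.1-fold lower. *Mbd2* was 1.88-fold higher in preNeu (0.86, SE 0.16, adjusted p = 0.00103) and 3.45-fold higher in matNeu cells (1.71, SE 0.16, adjusted p = 2.67e-06). The share of *Mbd2* in the pair was 25.3%, 21.9% and 16.6% in the GMP libraries, 57.1%, 59.6% and 66.01% in the preNeu libraries and 98.4%, 89.2% and 96.0% in the matNeu libraries. It thus rose at each step without overlap of the libraries. The share differed between the 3 cell types (exact permutation test, p = 0.00357, the smallest possible, adjusted p = 0.00571), and single steps were not tested. The summed TPM of the pair was 69.98 ± 11.7 in GMPs, 44.8 ± 1.63 in preNeu and 52.9 ± 4.47 in matNeu cells (SD, n = 3).

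*Rbbp4* (chr4:129307100-129335370, -), a WD40 histone chaperone that NuRD shares with the chromatin assembly factor CAF-1 and with PRC2, fell late. It was at 224, 225 and 178 TPM in GMPs, 169, 142 and 169 in preNeu and 36.9, 38.0 and 55.7 in matNeu libraries. The matNeu libraries lay below all others. From GMP to preNeu cells the change did not pass the test (log2 change -0.38, SE 0.18, limma adjusted p = 0.086) and turned to 0.13 under median-of-ratios scaling, whereas from preNeu to matNeu cells *Rbbp4* was 3.67-fold lower (-1.87, SE 0.18, adjusted p = 4.41e-06). Its paralog *Rbbp7* has a closely related sequence, so that reads could be split between them, and *Rbbp4* overlaps *Sync* on the opposite strand. The library kit keeps strand, but the setting used in quantification is not given in the sources used here.

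*Rbbp7* fell further. It was at 629, 714 and 629 TPM in GMPs, 241, 264 and 273 in preNeu and 10.2, 9.12 and 13.5 in matNeu libraries, 60.2-fold lower in matNeu cells than in GMPs (log2 change -5.80, SE 0.15, limma adjusted p = 2.45e-10). *Rbbp4* therefore made up 24.1% ± 2.13 of the pair in GMPs, 38.1% ± 3.12 in preNeu and 79.8% ± 1.29 in matNeu cells (SD, n = 3, exact permutation test, p = 0.00357, adjusted p = 0.00571). The pair as a whole went from 866 ± 66.9 to 419 ± 19.7 and 54.5 ± 12.7 TPM.

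**Figure D3:**
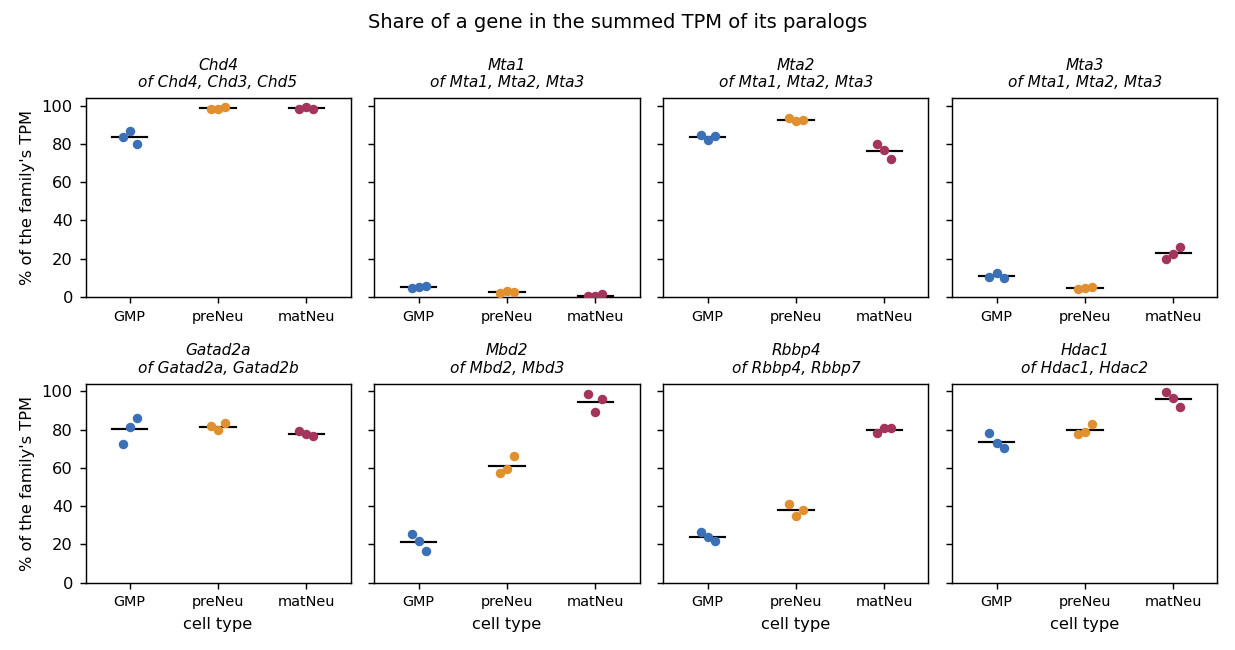
Share of 8 genes in the summed TPM of their paralogs, in percent, by library (points) with the mean of 3 libraries as a bar. *Mbd2* and *Rbbp4* went from the smaller to the larger share of their pairs, *Mta3* was lowest in preNeu cells, and *Gatad2a* stayed between 72.6% and 86.2% in all libraries.

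Of the other subunits, the deacetylase genes also fell between preNeu and matNeu cells. *Hdac1* was at 245, 285 and 259 TPM in GMPs, 252, 269 and 299 in preNeu and 59.98, 72.1 and 82.0 in matNeu libraries (log2 change from preNeu to matNeu -1.93, SE 0.14, limma adjusted p = 4.94e-07). *Hdac2* was at 69.1, 106 and 109, at 72.1, 71.9 and 62.7 and at 0.159, 2.69 and 7.27 TPM (-4.41, SE 0.55, adjusted p = 3.73e-05). From GMP to preNeu cells *Hdac1* changed by 0.05 (limma adjusted p = 0.756) as deposited and by 0.57 (adjusted p = 0.0036) under median-of-ratios scaling. *Hdac2* changed by -0.43 (limma adjusted p = 0.528) in that step as deposited and turned to 0.08 (adjusted p = 0.927) under the scaling. *Hdac1* made up 73.7% ± 3.90 of the pair in GMPs, 79.8% ± 2.57 in preNeu and 96.0% ± 3.96 in matNeu cells (exact permutation test, p = 0.00714, adjusted p = 0.00952). In matNeu cells *Rbbp7* and *Hdac2* were the lower genes of their pairs. *Hdac2* was the lower one in GMP and preNeu cells too, whereas *Rbbp7* had been the higher one there.

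The accessory CDK2-associated genes moved in opposite directions. *Cdk2ap1* was at 14.4, 19.7 and 23.4 TPM in GMPs and 5.80, 5.41 and 4.84 in matNeu libraries (log2 change -1.64, SE 0.28, limma adjusted p = 0.000243). *Cdk2ap2* rose from 183, 175 and 213 TPM in GMPs to 544, 485 and 418 in preNeu and 2026, 1654 and 1578 in matNeu libraries, 9.2-fold between GMP and matNeu means (3.19, SE 0.14, adjusted p = 6.08e-09). The neuronal ATPase gene *Chd5* stayed at or below 0.213 TPM in every library and was not tested. Of the 5 other subunits tested, 4 fell and 1 rose between GMP and matNeu cells (54.1% and 22.8% of all genes), with a median log2 change of -1.88 against -0.92 for all genes.

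On the TPM scale, which is per transcript length, the order of the NuRD genes changed. In GMPs *Mta2* (224) and *Rbbp4* (209) led with overlapping libraries, followed by *Chd4* (79.8), then *Gatad2a* (56.8) and *Mbd3* (55.4), which overlapped, *Mta3* (29.6) and a group from 15.7 down to 13.4 with *Chd3*, *Mbd2*, *Mta1* and *Gatad2b*. In preNeu cells *Rbbp4* (160) and *Mta2* (146) overlapped, then came *Gatad2a* (52.0) and *Chd4* (42.2), which overlapped as well, *Mbd2* (27.3), *Mbd3* (17.5), *Gatad2b* (11.7), *Mta3* (7.35), *Mta1* (4.29) and *Chd3* (0.546). In matNeu cells *Mta2* (81.4) led, *Gatad2a* (52.6), *Mbd2* (50.1) and *Rbbp4* (43.5) overlapped, and *Chd4* (31.7) overlapped *Mta3* (24.4). *Gatad2b* (15.0) stood alone, and *Mbd3* (2.78), *Mta1* (0.877) and *Chd3* (0.464) formed a chain in which each overlapped the next.

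The profile nearest to that of *Chd4* among the NuRD genes was *Mta2*, with a root mean square difference of 0.206 in centred log2(TPM + 1) over the 9 libraries. Among all other genes tested, *Gm6210* (0.0961), *Zbtb1* (0.0963), *Inafm2* (0.106) and *Rnh1* (0.115) were among the 5 nearest. *Gatad2a* and *Gatad2b* were nearest to each other (0.33), and *Chd3* (0.85) was farthest from its own nearest member, *Mta1*. *Mta1* itself was nearest to *Rbbp4* (0.54), *Mbd3* to *Mta1* (0.68), *Mbd2* to *Gatad2b* (0.67), *Mta3* to *Gatad2b* (0.75) and *Rbbp4* to *Mta2* (0.49).

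Genes of factors that recruit or contact NuRD were counted in the same way. Of 21 listed, 15 passed the expression filter, and between GMP and matNeu cells 9 fell and 2 rose, beside 54.1% and 22.8% of all genes, with a median log2 change of -0.51 against -0.92 for all genes. *Gfi1* itself was at 8.01, 5.88 and 17.5 TPM in GMPs, 20.1, 23.2 and 29.2 in preNeu and 0, 0 and 0.145 in matNeu libraries (log2 change of TPM + 1 from preNeu to matNeu -4.57, SE 0.35, limma adjusted p = 9.26e-07). *Bcl6*, a repressor that contacts MTA3, rose from a mean of 0.786 TPM in GMPs to 46.3 in matNeu cells (4.75, SE 0.27, adjusted p = 4.15e-08). The lymphoid regulator *Ikzf2* fell by 3.76, *Zfp219* by 3.50, *Bcl11a* by 2.74 and *Gfi1b*, the paralog of *Gfi1*, by 2.18 on the same scale, all with a limma adjusted p of at most 0.00106.

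RBBP4 also works in CAF-1 and PRC2. The CAF-1 genes *Chaf1a* and *Chaf1b*, which deposit histones behind the replication fork, went from means of 88.9 and 118 TPM in GMPs to 0.0826 and 2.83 in matNeu cells. In PRC2 the methyltransferase gene *Ezh2* fell from 88.0 to 3.03 TPM and *Suz12* from 23.9 to 5.72, *Ezh1* rose from 22.8 to 71.1, and *Eed* was at 115 and 103 (adjusted p = 0.486). Of these 6 genes, 4 fell and 1 rose between GMP and matNeu cells by limma, beside 54.1% and 22.8% of all genes. The 12 proliferation genes, among them *Mcm3* and *Cdk1*, all fell between GMP and matNeu cells, with a median log2 change of -6.73. All 12 also fell from preNeu to matNeu cells (39.8% of all genes), with a median of -6.27. From GMP to preNeu cells 7 fell and 5 rose (44.3% and 14.7% of all genes). Their sum was 4306 to 4716 TPM in GMP, 3757 to 4131 in preNeu and 54.6 to 73.8 in matNeu libraries. *Rbbp4*, *Rbbp7*, *Hdac1* and *Hdac2* fell from preNeu to matNeu cells too, and the part of proliferation in their change was not tested.

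CHD4 was not listed at the promoter of any NuRD gene in GMPs. The WT list held 35790 CHD4 peaks, and 4 of the 10 genes had at least 1 of them within 10 kb of the gene body, against 42.8% of 11347 protein-coding genes with a mean of at least 1 TPM in GMPs. At the promoter, taken as 2 kb before and 500 bp after the annotated 5′ end, 0 of 10 had a peak, against 12.6%. Within 10 kb of the 5′ end the count was 0 of 10 as well, against 29.0%. The count within 10 kb was close to the background, and 10 genes are few for reading the others. With 1 library per genotype there is no replicate check.

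The 8 CHD4 peaks lay in or behind *Mta3* (5), *Gatad2b*, *Gatad2a* and *Mta2* (1 each), and none was listed within 10 kb of *Chd4*, *Chd3*, *Mta1*, *Mbd2*, *Mbd3* or *Rbbp4*. The highest, at chr3:90362404-90362673 in the 3′ UTR of *Gatad2b*, had a fold enrichment of 7.76, near the median of 7.72 over all WT peaks. The other 7 ranged from 3.31 to 5.51, at or under percentile 22.9 of the list. That of *Mta2* (chr19:8953059-8953231) began past the 3′ end and reached the promoter of the neighbouring gene *Tut1*. The peak in an intron of *Mta3* (chr17:83732174-83732452) was also covered by H3K4me2 in GMP, preNeu and matNeu cells and by an ATAC-seq peak, and the one in an intron of *Gatad2a* (chr8:69985289-69985525) by H3K4me2 in preNeu and matNeu cells.

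For these 2 intronic peaks the summit with 100 bases on each side is printed, on the strand of the gene, with GAGGAA or AAATCA on either strand in capitals where present. Neither motif occurred in the *Mta3* window at chr17:83732275-83732475 or in the *Gatad2a* window at chr8:69985355-69985555. A further *Mta3* window, at chr17:83764630-83764830 and within an intron, held GAGGAA on the opposite strand.
Mta3 summit at 26.2 kb: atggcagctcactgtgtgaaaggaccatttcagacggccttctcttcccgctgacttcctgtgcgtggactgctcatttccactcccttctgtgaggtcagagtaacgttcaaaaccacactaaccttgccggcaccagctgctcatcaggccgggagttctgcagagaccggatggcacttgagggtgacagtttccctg
Gatad2a summit at 10.9 kb: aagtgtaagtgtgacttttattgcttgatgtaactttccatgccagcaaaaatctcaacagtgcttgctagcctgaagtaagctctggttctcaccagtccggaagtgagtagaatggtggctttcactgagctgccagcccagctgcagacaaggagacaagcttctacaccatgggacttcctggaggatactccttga
Mta3 summit at 58.6 kb: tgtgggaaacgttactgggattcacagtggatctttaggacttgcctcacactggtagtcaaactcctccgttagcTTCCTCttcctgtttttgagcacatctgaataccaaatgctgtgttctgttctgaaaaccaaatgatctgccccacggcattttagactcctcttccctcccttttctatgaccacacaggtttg
Of the 8 windows, 3 held GAGGAA and 0 held AAATCA, against 46.1% and 12.1% of 35728 windows of the WT list.

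In Gfi1KO GMPs no NuRD gene had a CHD4 peak. The Gfi1KO list held 7316 peaks, and 0 of 10 genes had one within 10 kb (13.9% of all genes) or at the promoter (2.24%). None of the 8 WT peaks was overlapped by a Gfi1KO peak, against 18.5% of all 35790 WT peaks. By the approximate rule of 3 over n, a count of 0 among 8 allows a share of up to 37.5%. That rule takes the 8 peaks as independent, although 5 of them belong to *Mta3*. When the WT list was cut to its best 7316 peaks by q-value, 0 of 10 genes had a WT peak either. The genotype difference at these genes therefore cannot be told apart from the difference in list length, and read depths are unknown. Whether *Gfi1* was deleted cannot be checked in a peak list.

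**Figure D4:**
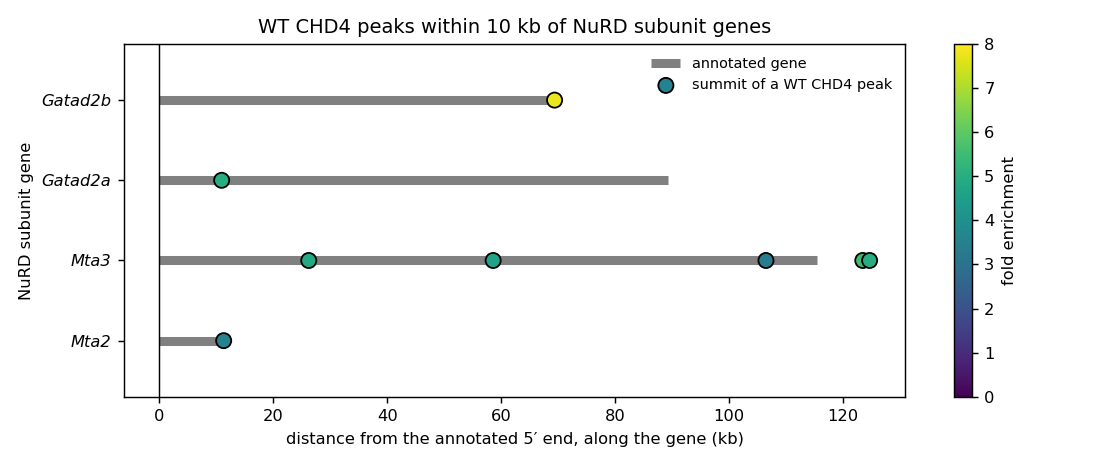
WT CHD4 peaks within 10 kb of the 4 NuRD genes that had any, by distance of the summit from the annotated 5′ end along the gene in kb, with the gene as a grey bar and fold enrichment as colour. All 8 summits lay at least 10.9 kb from the 5′ end, and that of *Gatad2b* had the highest fold enrichment, 7.76.

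H3K4me2 stayed at the promoters of all 10 NuRD genes, also of those whose RNA was nearly gone. Every gene had an H3K4me2 peak within 10 kb in GMP, preNeu and matNeu cells (96.9%, 97.8% and 97.2% of all genes) and at its promoter (88.8%, 91.0% and 89.8%). *Chd3*, *Mta1* and *Mbd3*, which fell by over 3 on the log2 scale between GMP and matNeu cells, kept a promoter peak in matNeu cells. So did 98.2% of the 2173 genes that fell by at least 3 and had a promoter peak in GMPs, a limit that was set after the values were seen. Keeping the peak was thus common to such genes.

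Fold enrichments differ in scale between the libraries, so each promoter peak was ranked among the promoter peaks of all genes of its own list. *Mta1* ranked at percentile 90.3 in GMP, 85.0 in preNeu and 89.0 in matNeu cells, and *Mbd3* at 79.1, 73.2 and 76.1. *Chd3* went from 90.3 to 60.5 and 72.6. By fold enrichment the ranks of *Mta1* and *Mbd3* thus moved little across the stages in which their RNA fell. Their ranks by peak width did move. By width *Mta1* went from percentile 74.7 in GMP to 24.8 in preNeu and 32.0 in matNeu cells, and *Mbd3* from 5.88 to 63.2 and 64.0. *Mbd2*, whose RNA rose, went from percentile 30.9 to 20.1 and 10.2 by fold enrichment. Its promoter peak was 2304 bp wide in GMPs, 8348 bp in preNeu and 7203 bp in matNeu cells, against medians of 2288, 3351 and 2610 bp over all genes with a peak.

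*Rbbp4* had a promoter peak of 5671, 5223 and 3872 bp, and *Chd3* of 5617, 5190 and 3575 bp. Both narrowed from preNeu to matNeu cells as the median did. From GMP to preNeu cells both narrowed as well, while the median widened from 2288 to 3351 bp. The peak at *Rbbp4* also covered the promoter of *Zbtb8os* in each cell type, as did the ATAC-seq peak there. It cannot be assigned to *Rbbp4* alone. *Chd4* had 4101, 5011 and 4860 bp, *Gatad2a* 3053, 4813 and 4736 bp and *Gatad2b* 4209, 4572 and 3948 bp. *Mta3* widened from 2752 to 3350 and 4294 bp and ranked at percentiles 18.3, 57.1 and 63.7, although its RNA was lowest in preNeu cells. *Mta1* had 3209, 2341 and 2021 bp and *Mta2* 4372, 4772 and 3920 bp. At *Mbd3* the GMP peak over the promoter was 835 bp wide and a second one began inside the gene, where preNeu and matNeu cells had 1 peak of 4111 and 3236 bp.

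Across each gene and its flanks, H3K4me2 peaks numbered 39 in GMP, 48 in preNeu and 40 in matNeu cells. *Mta3*, the longest of the genes, had 12, 12 and 6, and *Rbbp4* had 1 in each list. *Gatad2a* had 5, 8 and 9 and *Mbd2* had 2, 6 and 4. Since 1 library stands for each cell type and the lists hold 37643, 49578 and 44094 peaks, these counts have no test.

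**Figure D5:**
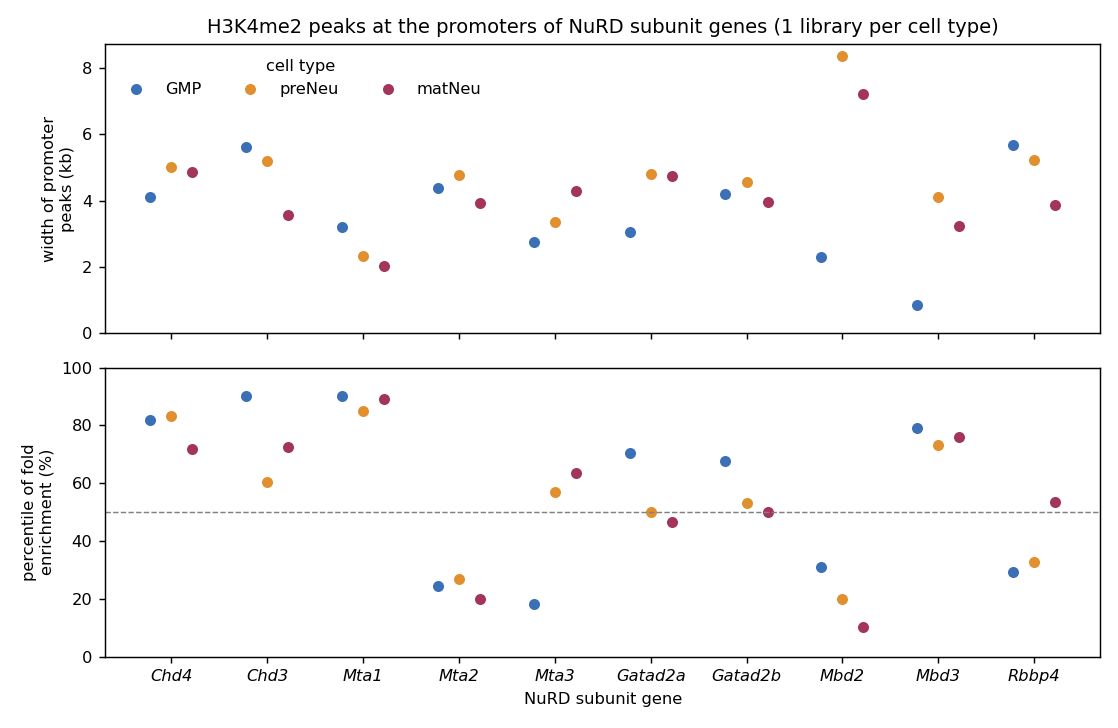
Width in kb (top) and percentile of fold enrichment among all promoter peaks of the same list (bottom) of the H3K4me2 peaks at the promoters of the 10 NuRD genes, 1 library per cell type, with the percentile 50 as a dashed line. *Mta1* and *Mbd3* stayed at percentiles 73.2 to 90.3 in all 3 cell types, and *Mbd2* had the widest peaks in preNeu and matNeu cells.

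Open chromatin was listed at most of these promoters. The ATAC-seq lists labelled preNeu and matNeu held the same 16307 peaks and were used as 1 list, so that no stage can be compared. A peak lay within 10 kb of 8 of the 10 genes (80.6% of all genes) and at the promoter of 7 (64.0%). The 3 genes without a promoter peak were *Chd3*, *Mta1* and *Mta3*, and *Mta3* had its single peak in the intron that also carried CHD4 in GMPs. By mean TPM, *Chd3* and *Mta1* were the least abundant NuRD genes in preNeu and matNeu cells. *Mbd3*, next lowest in matNeu cells at a mean of 2.78 TPM, had the promoter peak of highest fold enrichment (8.78, percentile 99.7). *Mta3*, which lacked such a peak, was at 24.4 TPM there. A link between RNA level and these peaks was not tested.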

How the data were processed

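RNA-seq and ChIP-seq of sorted mouse cells were analysed as deposited, with samples grouped by title. The authors deposited TPM per gene, and which of the named tools gave it is not given in the sources used here (the protocol describes HTSeq counts, the submitters' processing notes name kallisto 0.44.0). Each peak list deposited gives a fold enrichment, a ratio to background within each library, and, from the authors, a −log10 q-value. The submitters' processing notes also name FastQC 0.11.5, MultiQC 1.6, Trimmomatic 0.36, BWA 0.7.17, MACS2 2.1.0 and mm10. Read depth is unknown, since TPM keeps none, and 0 columns belonged to other samples. The GFI1 and H3K4me3 lists reach beyond the GRCm38 chromosome ends and were not used here.

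The 10 genes and all lists were chosen with earlier results of these data known. Named were all 10 genes, all other subunits, up to 6 genes of each further list with the largest change between matNeu cells and GMPs, and the 5 genes nearest to *Chd4*, of which 1 is not reported here, nor is 1 B cell marker. limma 3.58.1 (R 4.3.3, trend in the variance) was fitted to log2(TPM + 1) of genes that reached 1 TPM in 3 or more libraries, with all 9 libraries in 1 fit and Benjamini-Hochberg adjustment at 0.05. Fold changes on this scale understate low genes, and folds of mean TPM are given beside them. Nothing says that libraries came from separate mice, so p-values measure the spread between these libraries. Shares of paralogs were tested with an exact permutation over 1680 assignments, upper tail. Coordinates are GENCODE M21 on GRCm38, and overlaps needed 1 bp. Scripts ran on Python 3.11.15 with numpy 2.4.6, pandas 2.3.3, pysam 0.24.0, samtools 1.23.1 and matplotlib 3.10.9 and were tested on simulated data. Alternatives were other pseudocounts, filters, scalings, fits and peak limits, a replicate block and leaving out each library.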

Additional observations from a re-analysis of the deposited data

How the results depend on the processing

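The calls of *Chd3*, *Chd4*, *Mta1*, *Mta2*, *Mbd2*, *Mbd3* and *Rbbp4* between matNeu cells and GMPs, and the shares of *Mbd2*, *Rbbp4* and the MTA genes, kept direction and side of the threshold under every alternative in which they were fitted. *Chd3* dropped below the filter when a GMP library was left out. Median-of-ratios scaling gave 4 genes higher between matNeu cells and GMPs. It turned *Gatad2a* (0.40) and *Gatad2b* (0.30) and *Rbbp4* (0.13) in preNeu against GMP, *Gatad2a* (0.78) and *Mta3* (0.58) in matNeu against GMP and *Chd3* (0.0146) in matNeu against preNeu. Rescaling without the most abundant genes turned *Gatad2a* (0.24) and *Gatad2b* (0.15) in preNeu against GMP and *Gatad2a* (-0.25) in matNeu against preNeu, and made the fall of *Chd4* in the last comparison pass (-0.66, limma adjusted p = 0.00338). Leaving out 1 library moved *Gatad2a* between -0.31 and 0.0616, -0.30 and 0.0727, and -0.10 and 0.15 in the 3 comparisons, *Chd3* between -0.21 and 0.0736 in matNeu against preNeu, and the share of *Gatad2a* from -6.05 to 0.727 percentage points. *Chd4* in matNeu against preNeu also passed without preNeu replicate 1 (adjusted p = 0.0384) and without matNeu replicate 3 (0.0451), and *Rbbp4* in preNeu against GMP without matNeu replicate 3 (0.0319) and with the compared libraries alone (0.0402). The share of *Gatad2a* passed without GMP replicate 1 (exact permutation adjusted p = 0.0464).

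Replicate numbers did not pair the libraries (deviations correlated between -0.04 and 0.12 for the same number). With the replicate block, whose permutations allow a p of 0.0278 at the least, the shares of *Chd4* (a rise of 15.2 points, exact permutation adjusted p = 0.0952) and *Hdac1* (22.3 points, 0.0741) no longer passed, and no limma call of a NuRD gene changed. WT CHD4 peaks were counted at 0 genes within 10 kb of the 5′ end and at 0 with the list cut to the Gfi1KO length. What these settings change is their own construction, and low TPM limits *Chd3* and *Mta1* in matNeu cells.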
